A study of Mus musculus with 4 samples.

Results

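Trophoblast-like cells were examined in day 9 mouse embryoid bodies, aggregates in which embryonic stem cells differentiate. Cells came from embryonic stem cells pulsed with DUX (2 libraries) and from control embryonic stem cells (2 libraries), all from day 9 organoid culture and called biological replicates in the series design. DUX is a transcription factor of the early mouse embryo. The stem cell line, the way DUX was switched on, the length of the pulse and the treatment of the controls were not given in the labels. A cell entered the set if it had 1 or more UMIs (unique molecular identifiers, 1 per captured transcript) in at least 5 of 9 marker genes (Gata2, Gata3, Hand1, Tfap2c, Plac1, Rhox6, Rhox9, Krt7 and Ascl2) and 2 or more UMIs in fewer than 4 of 6 parietal endoderm genes (Gkn2, Srgn, Thbd, Fst, Lama1 and Plat). Cells with fewer than 500 detected genes or with over 10% mitochondrial UMIs were dropped, and of the 8876 that stayed 87 met this rule: 39 and 18 in DUX-pulsed libraries 1 and 2, and 24 and 6 in control libraries 1 and 2.

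The trophoblast is the outer lineage of the mammalian embryo and builds the fetal part of the placenta. In the mouse, stem cells of the extraembryonic ectoderm feed the ectoplacental cone, the giant cells that invade and make hormones, and the labyrinth, where exchange with maternal blood takes place. GATA2, GATA3 and TFAP2C are transcription factors of the lineage, HAND1 drives giant cell differentiation, ASCL2 maintains spongiotrophoblast precursors, PLAC1 is a placental surface protein, RHOX6 and RHOX9 are X-linked homeobox proteins, and KRT7 is a keratin of simple epithelia. HAND1 is also made in extraembryonic and cardiac mesoderm, and KRT7 and GATA3 in other epithelia.

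The DUX-pulsed cells had medians of 7 and 6 of the 9 markers in libraries 1 and 2, whereas the control cells that met the rule had medians of 5 and 5, the lowest number the rule allows. At least 6 markers were found in 35 of 39 and 13 of 18 DUX-pulsed cells, against 2 of 24 and 1 of 6 control cells. The control cells are called control cells that met the rule, and the name trophoblast-like is used for the DUX-pulsed set as a whole. The pooled values of the 9 DUX-pulsed cells with 5 markers go against that name. Their 8.67 CPM of Gata2 (plain CPM) were near the 9.24 CPM of the 27 control cells with 5 markers. These 9 cells were mixed. A cell of 8005 UMIs in DUX-pulsed library 1 had 9 UMIs of Rhox6 and 13 of Rhox9. Another of 1211 UMIs in DUX-pulsed library 2 had 12 and 11 UMIs of these genes. Those 9 cells stay in every comparison because the rule admits them. Trophoblast-like cells had more UMIs than the rest of their libraries, with medians of 52175 and 33459.5 UMIs against 27423.5 and 26908 UMIs in the other DUX-pulsed cells. The control cells that met the rule had medians of 50060 and 45788.5 UMIs, against 30294 and 28292.5 UMIs in the other control cells. A rule that counts detected genes is met more easily by a deeper cell. The part of depth in the membership was measured by thinning cells of at least 10000 UMIs to 10000 UMIs, given with the shares below.

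Among the genes highest in trophoblast-like cells relative to other cells stood Serpinb9e, Serpinb9f and Serpinb9g, neighbouring copies of an intracellular protease inhibitor gene on chromosome 13. Their upstream sequences are shown because the 3 copies were found in the same kind of cell and are near-identical there. The stretches of 235 bases lie on the plus strand of GRCm38.p6 (mm10) at chr13:33249373-33249607 (Serpinb9e), chr13:33323827-33324061 (Serpinb9f) and chr13:33484551-33484785 (Serpinb9g), taken from the RefSeq promoter windows and aligned without gaps. They were identical at 224 positions, and capitals mark the 11 positions at which at least 1 copy differs. Serpinb9e and Serpinb9f were 99.1% identical, and Serpinb9g was 95.7% identical to each of them.
Serpinb9e: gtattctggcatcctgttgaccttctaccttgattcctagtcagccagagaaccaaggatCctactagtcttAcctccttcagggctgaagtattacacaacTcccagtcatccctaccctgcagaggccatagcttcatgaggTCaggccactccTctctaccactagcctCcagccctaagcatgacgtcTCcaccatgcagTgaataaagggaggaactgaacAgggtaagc
Serpinb9f: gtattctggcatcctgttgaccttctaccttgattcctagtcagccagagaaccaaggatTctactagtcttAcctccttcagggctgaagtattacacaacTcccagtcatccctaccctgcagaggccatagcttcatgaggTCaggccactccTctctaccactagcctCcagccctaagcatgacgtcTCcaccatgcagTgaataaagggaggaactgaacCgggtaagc
Serpinb9g: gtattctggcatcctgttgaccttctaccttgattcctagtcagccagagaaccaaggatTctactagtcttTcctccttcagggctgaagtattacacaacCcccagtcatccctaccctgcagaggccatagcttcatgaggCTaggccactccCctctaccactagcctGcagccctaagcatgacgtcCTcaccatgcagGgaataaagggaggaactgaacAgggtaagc
Copies of a gene family this close may share reads, so the counts of single Serpinb9 genes are uncertain.

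AP-2 and GATA proteins were among the markers, so matches to their motifs were searched in the 250 bases before each RefSeq start. The AP-2 motif was GCCNNNGGC, which reads the same on both strands, and the GATA motif was GATAA or GATAG after an A or a T, on either strand. AP-2 matches were present in 13.7% of all 32851 promoters, in 2 of the 10 promoters available for the 16 named rises, and in 3 of the 7 promoters available for the markers. GATA matches were present in 26.5% of all promoters, in 1 of the 10 and in 1 of the 7. The promoters of Ldoc1 (chrX:61709361-61709610, plus strand) and Sct (chr7:141279134-141279383, minus strand) each held an AP-2 match that began 49 bases before the start, shown in capitals, 5′ to 3′ on the strand of the gene.
Ldoc1: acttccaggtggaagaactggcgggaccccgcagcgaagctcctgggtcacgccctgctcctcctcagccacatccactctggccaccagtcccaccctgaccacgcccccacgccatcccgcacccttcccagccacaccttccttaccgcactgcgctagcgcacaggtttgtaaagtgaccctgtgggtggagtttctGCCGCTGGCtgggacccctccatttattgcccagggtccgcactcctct
Sct: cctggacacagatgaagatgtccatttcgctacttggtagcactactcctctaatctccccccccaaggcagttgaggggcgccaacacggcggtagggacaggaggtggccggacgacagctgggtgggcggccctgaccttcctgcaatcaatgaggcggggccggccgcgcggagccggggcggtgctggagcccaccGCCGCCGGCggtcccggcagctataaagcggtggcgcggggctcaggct
The GENCODE gene model of Ldoc1 begins upstream of its match, so by that annotation the stretch lies inside the gene. A match describes letters in the window and was not tested as a binding site.

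The share of cells that met the rule was 1.89% (39 of 2063 kept cells) and 1.33% (18 of 1353) in DUX-pulsed libraries 1 and 2, against 0.85% (24 of 2824) and 0.228% (6 of 2636) in control libraries 1 and 2. The exact 95% Clopper-Pearson intervals were 1.35 to 2.58% and 0.79 to 2.09% in the DUX-pulsed libraries and 0.545 to 1.26% and 0.0836 to 0.495% in the control libraries, and cover counting error only. Both DUX-pulsed libraries lay above both control libraries, although the intervals of DUX-pulsed library 2 and control library 1 overlapped. The means were 1.61% ± 0.396 in DUX-pulsed libraries and 0.539% ± 0.44 in control libraries (SD, n = 2 each), a difference of 1.07 percentage points, with p = 0.333 by the two-sided exact permutation test, the smallest value that 2 against 2 libraries allow. Cells with 6 or more markers made up 1.33% ± 0.52 of the DUX-pulsed libraries and 0.0544% ± 0.0233 of the control libraries. For the thinning, cells under 10000 UMIs were left out, so that 1821 and 1010 DUX-pulsed and 2365 and 2110 control cells remained. Among these were 36 and 16 of the DUX-pulsed and 23 and 6 of the control cells that met the rule. After each remaining cell was thinned to 10000 UMIs, the shares were 1.29% ± 0.278 and 0.0448% ± 0.00361 (27 and 11 DUX-pulsed cells, against 1 and 1 control cells). Requiring only 4 markers gave 2.93% ± 0.173 and 2.36% ± 1.02, with the ranges of the groups overlapping. The excess in DUX-pulsed libraries thus lay among cells with many markers.

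**Figure D1:**
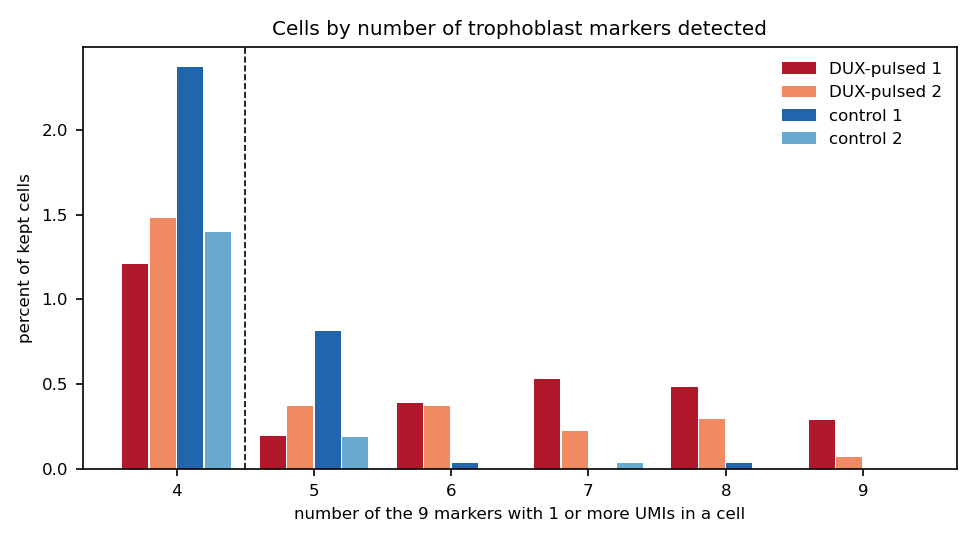
Percent of the kept cells of each library (y axis) by the number of the 9 markers detected (x axis), with 1 bar for each library and the rule's limit as a dashed line. Cells with 6 to 9 markers were nearly all DUX-pulsed (35 and 13 cells, against 2 and 1 control cells), whereas 22 of 24 and 5 of 6 control cells that met the rule had 5.

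The cells just inside and just outside the limit differed from the cells with many markers. The values in this paragraph are plain CPM (the gene's UMIs scaled to a common total of UMIs in the cells named), describe genes that chose the cells, and carry no test. In DUX-pulsed libraries, the 48 cells with 6 or more markers had 386 CPM of Gata2, the 9 cells with 5 markers had 8.67 CPM, and the 44 cells with 4 markers had 11.7 CPM. Rhox6 stood at 2630, 69.4 and 27.2 CPM in the same order. Tfap2c stood at 263, 60.7 and 12.1 CPM. Hand1 did not follow this order, with 320, 393 and 213 CPM. Genes outside the rule split the same cells: Lgals3, a galectin of epithelial and trophoblast cells, had 917, 31.8 and 16 CPM, whereas the fibrillar collagen gene Col1a1 had 44.5, 621 and 1010 CPM and the WNT ligand gene Wnt6 had 16.7, 237 and 25.9 CPM. The 9 DUX-pulsed cells with 5 markers held 215 UMIs of Col1a1 and 82 of Wnt6, against 120 and 45 in the 48 cells with more. A single cell of DUX-pulsed library 2 held 147 of these Col1a1 UMIs, and the Wnt6 UMIs came from 3 cells. In the control libraries, the 3 cells with 6 or more markers had 29.3 CPM of Gata2, the 27 with 5 markers had 9.24 CPM, and the 100 with 4 markers had 6.72 CPM. One further control cell with 5 markers was left out by the parietal endoderm genes.

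Within the DUX-pulsed libraries, the rule genes differed widely in how far they were confined to trophoblast-like cells. Of all Rhox9 UMIs in kept cells, 97.5% and 97.1% lay in the trophoblast-like cells of DUX-pulsed libraries 1 and 2. The shares were 87.5% and 90.5% for Rhox6, 87.3% and 83.2% for Tfap2c, 83.6% and 83.9% for Gata2, and 79.8% and 63.6% for Ascl2. Since detection of these genes picked the cells, the shares describe the rule and support nothing. Gata3 (37.6% and 25.1%) and Plac1 (35% and 21.5%) were shared with other cells. Krt7 (25.1% and 9.3%) and Hand1 (12.6% and 5.26%) were mostly elsewhere. In the control libraries, the cells that met the rule held 22.2% and 6.03% of Rhox9 UMIs, 10.8% and 2.31% of Gata2 UMIs, and 3.14% and 2.05% of Hand1 UMIs. Shares also depend on how many cells met the rule.

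Single cells showed the same contrast in UMIs. Gata2 had a median of 10 UMIs per cell (range 0 to 83) in DUX-pulsed library 1 and 11.5 (0 to 93) in DUX-pulsed library 2, against medians of 0 in both control libraries (highest 6 and 2). Tfap2c had medians of 13 and 6 UMIs in the DUX-pulsed libraries, with highest values of 37 and 38, against 0 and 0.5 in the control libraries, with highest values of 19 and 6. Rhox6 had medians of 81 and 1 UMIs in the DUX-pulsed libraries, reaching 700 and 126, against 4.5 and 1 in the control libraries, reaching 24 and 6. By these medians, control cells met the rule with few UMIs per marker, and the 2 DUX-pulsed libraries differed from each other in Rhox6. A shallow cell of control library 1, with 2564 UMIs in all, held 20 UMIs of Rhox6 and 9 of Rhox9. Ascl2 was detected in the fewest trophoblast-like cells, 18 of 39 and 6 of 18, and Tfap2c in 35 of 39 and 18 of 18.

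**Figure D2:**
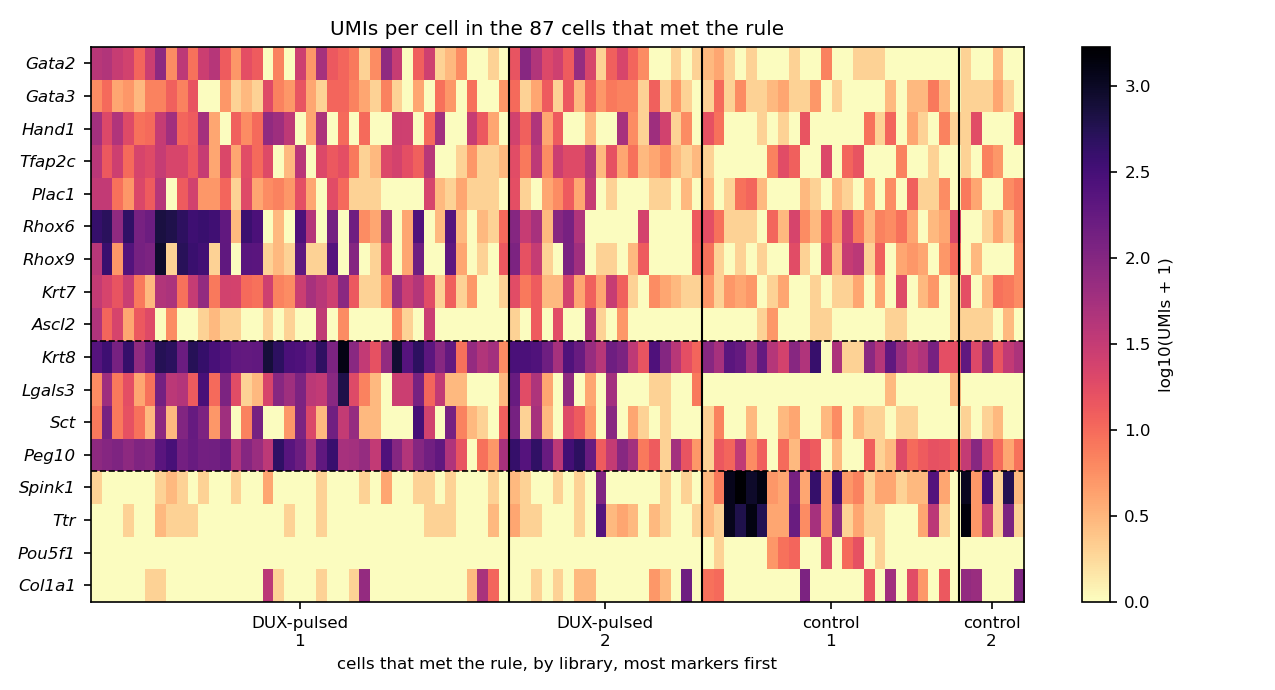
UMIs of each gene (rows, log10 of UMIs plus 1) in each of the 87 cells that met the rule (columns), grouped by library and sorted by number of markers. The rows run from the 9 markers at the top through 4 epithelial and placental genes to Spink1, Ttr, Pou5f1 and Col1a1. Dark marker cells fill the DUX-pulsed blocks, and the lower rows are darkest in control columns, where 22 of 24 and 5 of 6 cells passed a minimum for Spink1, Pou5f1 or Col1a1.

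The control cells that met the rule carried RNA of several other lineages. With minimums chosen after seeing the values, at least 100 UMIs of Spink1 (a secreted trypsin inhibitor of endoderm) were found in 0 of 39 and 1 of 18 trophoblast-like cells, against 8 of 24 and 3 of 6 control cells. Any UMI of Pou5f1, the pluripotency factor OCT4, was found in 0 of 39 and 0 of 18 trophoblast-like cells, against 8 of 24 and 0 of 6 control cells. At least 4 UMIs of Col1a1 were found in 4 of 39 and 2 of 18 trophoblast-like cells, against 8 of 24 and 3 of 6 control cells. One or more of these 3 minimums was passed by 4 of 39 and 3 of 18 trophoblast-like cells, against 22 of 24 and 5 of 6 control cells. Cells with 0 to 3 markers had 6540 CPM of Spink1 (plain CPM) in control and 828 CPM in DUX-pulsed libraries. The Spink1 contrast is thus not particular to cells that met the rule. In the same order, cells with 0 to 3 markers had 2.27 and 0.531 CPM of Pou5f1. Col1a1 went the other way in them, with 43.4 and 474 CPM. Conversely, at least 10 UMIs of Lgals3 were found in 23 of 39 and 5 of 18 trophoblast-like cells, against 0 of 24 and 0 of 6 control cells. Scrublet, a doublet caller, marked 27 of 8876 kept cells (0.3%), too few for its calls to be used. The highest 5% of doublet scores in a library included 11 of 39 and 3 of 18 trophoblast-like cells, against 2 of 24 and 0 of 6 control cells that met the rule, and the part of doublets in these patterns was not tested.

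Trophoblast-like cells were next compared with all other kept cells of the DUX-pulsed libraries, to describe what they share beyond the genes that chose them. UMI counts were summed per library and kind of cell and tested with edgeR's quasi-likelihood test with Benjamini-Hochberg adjustment, and gene levels from here on are CPM scaled within each fit. The 15 rule genes carry no test in comparisons of these cells, and the other genes were measured in the same cells that the rule picked. Of 16426 genes tested, 1927 rose (11.7%) and 2524 fell (15.4%) in trophoblast-like cells, together 27.1%, at an adjusted p under 0.05. The median log2 fold change of all genes tested was -0.20, or 0.01 with genes at 0 in a group set at their bound. The count moved to 2629 after thinning to 10000 UMIs and to 2708 without DUX-pulsed library 1, which supplied 39 of the 57 cells.

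Of the genes named by the fitted fold change, Serpinb9f stood first, with 27.6 and 23.7 CPM in trophoblast-like cells of DUX-pulsed libraries 1 and 2 against 0 and 0 CPM in other cells, at least 906-fold higher (adjusted p = 4.23e-05). Ldoc1 (chrX:61709497-61710955, GENCODE vM21 on mm10), a gene derived from a retrotransposon with a known role in mouse placental endocrine cells, had 156 and 107 CPM against 0.157 and 0.0908 CPM (log2 fold change 10.00 ± 0.28 SE, adjusted p = 2.63e-07). Serpinb9e had 85.5 and 87.9 CPM against 0.105 and 0.121 CPM. The groups lay far apart in both libraries, as the naming rule required. Sct (chr7:141278330-141279133), the gene of the gut hormone secretin, had 749 and 354 CPM against 4.68 and 2.57 CPM (log2 fold change 7.22 ± 0.25, adjusted p = 3.5e-07). Zfp36l3, an RNA-binding protein gene of the rodent placenta, had 23.2 and 66.5 CPM against 0.0175 and 0.151 CPM.

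A further 10 of the 16 named rises were Fam90a1b, Fthl17a (a ferritin heavy chain-like gene), Serpinb9g, AU018091, Pramef12 (a PRAME family gene), Aldh3b2 (an aldehyde dehydrogenase), Sgk2 (a serine/threonine kinase), Tns4 (a tensin of cell adhesions), Dkkl1 (a Dickkopf-like secreted protein) and Utf1 (a chromatin factor of pluripotent cells). Their log2 fold changes lay between 6.59 ± 0.40 SE for Utf1 and 9.69 ± 0.45 SE for Fam90a1b. Utf1 had 72.8 and 33.8 CPM in trophoblast-like cells against 0.559 and 0.575 CPM in other cells, while Pou5f1 had 0 and 0 CPM against 0.734 and 0.787 CPM. The 16 rises kept their direction and their call in all 194 values that the alternative settings gave for them. The naming rule asked for a large called rise with no overlap, so much of this was fixed in advance. None was in every cell. Ldoc1 was detected in 53.8% and 33.3% of trophoblast-like cells (median depths 52175 and 33459.5 UMIs), against 0% and 0% of the mesenchyme-like cells of the same libraries (31074 and 33208 UMIs). Sct was detected in 79.5% and 61.1% against 8.36% and 5.31%. For Fthl17a in DUX-pulsed library 2, a single cell held 65.5% of the trophoblast-like cells' UMIs.

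**Figure D3:**
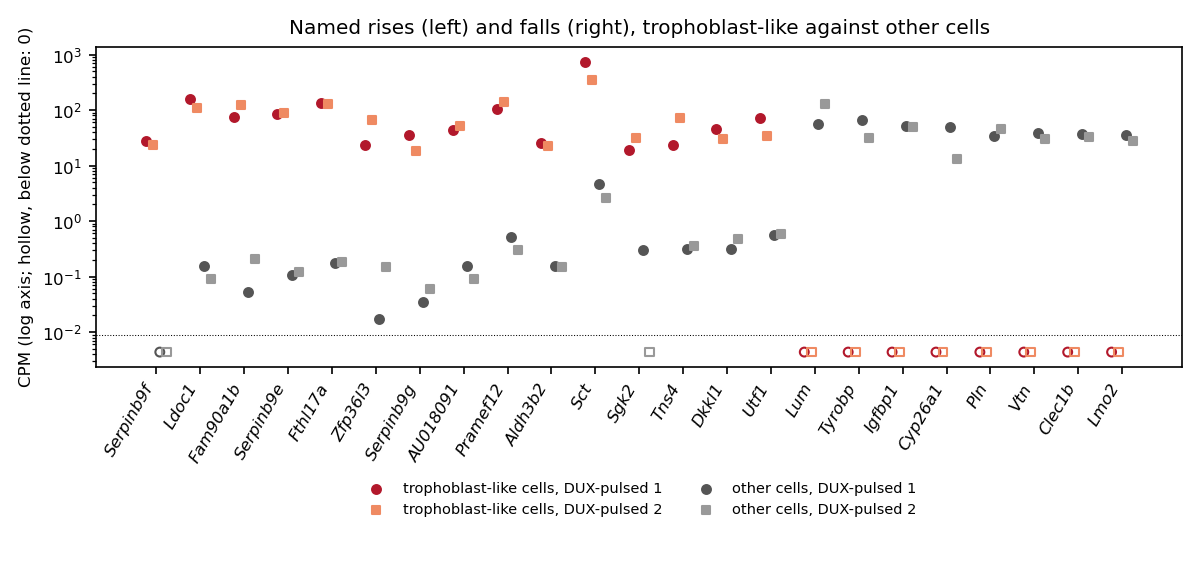
Level of each named gene (CPM, log axis, points for the 2 DUX-pulsed libraries) in trophoblast-like cells (red and orange) and in other cells (grey), with values of 0 drawn as hollow points below the dotted line. The 15 rises shown stand on the left with no overlap, as the naming rule required, and the 8 falls on the right are at 0 in trophoblast-like cells.

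The 8 falls named by fitted fold change were genes with no UMI in any trophoblast-like cell, so that only bounds can be given for them. The rule ranks by fitted values, and these are not shown to be the deepest falls. Lum, a proteoglycan of connective tissue, had 0 and 0 CPM in trophoblast-like cells against 56.1 and 128 CPM in other cells, at least 76.7-fold lower (adjusted p = 0.000113). Tyrobp, an adaptor of myeloid cells, stood at 0 and 0 against 65.8 and 31.2 CPM. Igfbp1, Cyp26a1, Pln, Vtn, Clec1b and Lmo2 completed the list, with bounds between 30.3-fold for Lmo2 and 47.1-fold for Igfbp1. They are known from secretory cells, retinoic acid breakdown, heart muscle, liver-like endoderm, platelets and blood precursors. The call of Clec1b was lost in 6 of the alternatives, with adjusted p between 0.0503 and 0.268 in those. Tyrobp lost its call with DESeq2 (adjusted p = 0.059) and Lum with 4 markers (adjusted p = 0.203).

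Genes of trophoblast stem cells and the extraembryonic ectoderm split. Of 10 tested, 4 rose, 3 fell and 3 did not pass. Elf5, a transcription factor that keeps the trophoblast fate, had 11 and 9.01 CPM against 0.0175 and 0.0303 CPM (log2 fold change 8.64 ± 0.66, adjusted p = 2.42e-05), but rested on 33 UMIs in 7 of 39 and 1 of 18 cells. Klf5, Tead4 and Ets2 also rose, by 2.08, 1.51 and 0.64 on the log2 scale, and Ets2 lost its call in 5 alternatives and Tead4 without DUX-pulsed library 1 (adjusted p = 0.0523). Cdx2, which specifies the trophectoderm, had 2.63 and 2.25 CPM against 27.8 and 31.9 CPM (log2 fold change -3.53 ± 0.33, adjusted p = 7.16e-05). Eomes, a T-box factor of trophoblast stem cells, had 0 and 0 CPM against 1.64 and 3.06 CPM (adjusted p = 0.0347), a call lost in 8 alternatives and turned to 0.06 on the log2 scale with 4 markers. Bmp4, a signal of the extraembryonic ectoderm and of mesoderm, had 19.3 and 42.8 CPM against 80.8 and 110 CPM (log2 fold change -1.73, adjusted p = 0.000548), a call lost with 4 markers (adjusted p = 0.804).

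Of the lists of later trophoblast, that of the labyrinth had the most genes tested. Among 12 tested labyrinth and syncytiotrophoblast genes, 7 rose (Gcm1, Dlx3, Tfeb, Ovol2, Gjb2, Cebpa and Pparg), Itga4 fell and 4 did not pass, with a median log2 fold change of 2.25. Pparg, a nuclear receptor needed for the labyrinth, had 38.1 and 34.9 CPM against 1.49 and 1.76 CPM (log2 fold change 4.51 ± 0.34, adjusted p = 2.09e-05) and was detected in 22 of 39 and 10 of 18 cells. Gcm1, which drives syncytiotrophoblast formation, had 11.8 and 5.63 CPM against 0.0874 and 0 CPM, from 6 of 39 and 1 of 18 cells. Gjb2, a connexin of the labyrinth, had 128 and 301 CPM against 6.2 and 8.75 CPM, and single cells held 55.5% and 59.9% of these UMIs. The Cebpa call was lost under the stricter cell filter and after thinning (adjusted p = 0.173 and 0.202), and the Itga4 call with 4 markers (adjusted p = 0.122). The fusogens Syna and Synb were too low to test. Of the genes of the ectoplacental cone, Pcdh12 did not pass and Plet1 rose. Plet1, a surface protein of trophoblast progenitors, had 74.1 and 96.9 CPM against 8.74 and 7.66 CPM (log2 fold change 3.35 ± 0.22, adjusted p = 1.1e-05).

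Giant cell genes were mostly below the limit of testing. Of the list of 15, 4 were tested. Cyp11a1, the first enzyme of steroid hormone synthesis, had 11.4 and 6.76 CPM against 0.0699 and 0.0605 CPM (log2 fold change 7.10 ± 0.73, adjusted p = 0.000124), from 7 of 39 and 1 of 18 cells. The protease gene Mmp9 rose (adjusted p = 0.0137), a call lost in 6 alternatives, and its value turned to -6.05 on the log2 scale after thinning. Hsd3b6 fell (adjusted p = 0.0423), a call lost in 9 alternatives. The placental lactogen and prolactin UMIs came almost entirely from 1 cell of DUX-pulsed library 1. This cell had 51875 UMIs and 7 markers, with no Rhox6 or Rhox9 UMI, and stood in the top 5% of doublet scores. It held 646 UMIs of Prl3d1 (placental lactogen I), 426 of Prl4a1, 179 of Prl7a1, 159 of Prl2c5, 125 of Prl2a1 and 80 of Prl7d1, together 1615 UMIs, against 6 UMIs of the 8 Prl genes in all other 86 cells that met the rule. The placental cathepsin gene Ctsj had 796 UMIs in it. Prl and cathepsin genes are multigene families, so the split among their members is uncertain.

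Keratins and other genes of simple epithelia rose in 10 of 14 cases, with a median log2 fold change of 1.60. Krt8 had 4790 and 2620 CPM against 1190 and 1050 CPM (log2 fold change 1.66 ± 0.23, adjusted p = 0.000577), and its partner Krt18 had 5410 and 2770 CPM against 1540 and 1160 CPM. Lgals3 had 922 and 428 CPM against 32 and 7.66 CPM (log2 fold change 5.29 ± 0.26, adjusted p = 1.93e-06). The epithelial factor Elf3 rose by 4.17 on the log2 scale. The claudin gene Cldn6 went the other way, with 92.1 and 107 CPM against 261 and 203 CPM (log2 fold change -1.24 ± 0.20, adjusted p = 0.00149), a call lost in a stricter cell filter of 1000 genes and 5% mitochondrial UMIs (adjusted p = 0.103).

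Imprinted genes of the placenta divided into 5 that rose, 4 that fell and 4 that did not pass, of 13 tested. Peg10, a retrotransposon-derived gene needed for the labyrinth and spongiotrophoblast, had 2070 and 2900 CPM against 376 and 293 CPM (log2 fold change 2.88 ± 0.24, adjusted p = 3.64e-05). Sfmbt2, a Polycomb gene expressed in the trophoblast, had 291 and 328 CPM against 18.4 and 12.7 CPM (log2 fold change 4.32 ± 0.22, adjusted p = 2.1e-06) and was detected in 35 of 39 and 15 of 18 cells. Both genes were spread over most cells. Cdkn1c, a cyclin-dependent kinase inhibitor, had 594 and 340 CPM against 12.2 and 11.6 CPM (log2 fold change 5.26 ± 0.34, adjusted p = 9.74e-06). Phlda2, which restrains placental growth, had 702 and 313 CPM against 9.33 and 6.42 CPM (log2 fold change 5.94 ± 0.23, adjusted p = 5.71e-07). Single cells held 54.5% and 70.5% of the Phlda2 UMIs and 39.3% and 38.1% of the Cdkn1c UMIs in the 2 libraries. H19, a long noncoding RNA, had 5710 and 8010 CPM against 1750 and 1970 CPM. Plagl1 and Mest fell, by 2.32 and 1.67 on the log2 scale, and lost their calls with 4 markers (adjusted p = 0.822 and 0.279).

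Other families moved in part. Of the 3 further Rhox genes and neighbours tested, Rhox13 rose, with 22.4 and 25.9 CPM against 0.105 and 0.727 CPM (log2 fold change 6.23 ± 0.54, adjusted p = 4.89e-05), and Rhox5 and Trap1a did not pass. Of 5 other GATA and AP-2 factors, Tfap2a rose (12.7 and 29.3 CPM against 1.63 and 3 CPM), with a value near no change after thinning (0.04 on the log2 scale, adjusted p = 0.987). The endoderm and heart factors Gata4, Gata5 and Gata6 fell, with Gata6 at 15.8 and 13.5 CPM against 185 and 223 CPM (adjusted p = 6.26e-06). Among 9 genes of the response to BMP, Msx2 rose and 7 fell, Id1 from that group with 149 and 121 CPM against 337 and 303 CPM (adjusted p = 0.00085). Of 8 regulators of the endocycle, by which giant cells copy DNA without division, Ccne1, Ccne2 and Cdt1 rose and Cdkn1a fell. The Ccne1 and Ccne2 calls were lost without DUX-pulsed library 1 (adjusted p = 0.181 and 0.106), and the Cdkn1a call in 7 alternatives. Of 10 S phase and 10 G2 and M phase genes, 0 passed in edgeR's quasi-likelihood test and 0 in DESeq2, with 2 and 0 at an unadjusted p under 0.05 and median log2 fold changes of -0.09 and -0.19. Medians over single cells (plain CPM) were higher in trophoblast-like cells. They were 804 and 765 against 509 and 397 CPM for S phase genes. For G2 and M phase genes they were 1350 and 309 against 329 and 153 CPM. The part of depth in these medians was not tested.

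Marker lists of other cell types were mostly lower in trophoblast-like cells than in the sum of all other cells, which holds cells of those types. All 12 genes of visceral and secretory endoderm, all 10 of cardiomyocytes, all 8 of mesenchyme, all 7 of erythroid cells, 9 of 10 of parietal endoderm and 7 of 8 of myeloid cells fell, and none of these lists had a gene that rose. Of 9 genes of extraembryonic mesoderm 8 fell, Hand2 among them with 3.95 and 11.3 CPM against 92.9 and 120 CPM, and Ahnak rose. The Hand2 call was lost with 4 markers (adjusted p = 0.26). The 12 endoderm genes summed to 21.1 and 479 CPM (plain CPM) in trophoblast-like cells, with Amn, Vtn, Ambp and Itih2 at 0 in library 1 and Apoa4, Cubn and Vtn at 0 in library 2, against 4330 and 3820 CPM in other cells. A single trophoblast-like cell of DUX-pulsed library 2 reached 11200 CPM of these genes. The 8 mesenchyme genes summed to 174 and 624 CPM, with Lum at 0 in both libraries, against 966 and 2730 CPM. Medians over single cells lay closer together for these lists. For the endoderm genes they were 17.1 and 37.8 CPM in trophoblast-like cells against 69.3 and 55.2 CPM in other cells. Cardiomyocyte genes had medians of 91.1 and 127 CPM against 99.9 and 145 CPM. Mesenchyme genes had medians of 12.8 and 59.1 CPM against 23.1 and 56.6 CPM. Endothelium genes, of which 4 of 8 fell and 0 rose, had higher medians, with 82.1 and 44.3 against 50 and 27.7 CPM. Pluripotency genes did not follow the other lists. Of 8 tested, Zfp42 and Utf1 rose, Tdh fell and 5 did not pass. Their medians were 132 and 121 CPM against 18.6 and 0 CPM. The part of the greater depth of trophoblast-like cells in these medians was not tested. Among 11 tested genes of surface ectoderm and amnion, 6 rose and Isl1 fell. Wnt6 was one of the 6, with 31.1 and 63.1 CPM against 3.53 and 4.66 CPM (adjusted p = 6.74e-05), a call lost in cells with 6 or more markers (adjusted p = 0.18) and after thinning (adjusted p = 0.491). Krt14 was another, with 55.7 and 3.38 CPM against 0.682 and 2.21 CPM, and lost its call without DUX-pulsed library 1 (adjusted p = 0.706) and with DESeq2 (adjusted p = 0.0954). The part of surface ectoderm cells in the rises was not tested.

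Another 3 classes were set beside the trophoblast-like cells in the same libraries, each defined by 2 or more UMIs in at least 4 of 6 genes: parietal endoderm-like cells (114 and 12 cells), secretory endoderm-like cells (58 and 36) and mesenchyme-like cells (275 and 245). Against parietal endoderm-like cells, of another extraembryonic lineage, 4705 of 16177 genes differed (29.1%), 2592 of them higher (16%) and 2113 lower (13.1%) in trophoblast-like cells. Ldoc1 had 146 and 107 CPM in trophoblast-like cells against 0 and 0 CPM in parietal endoderm-like cells, at least 353-fold higher (adjusted p = 8.84e-09). Tac2, the gene of the tachykinin neurokinin B, had 85.6 and 188 CPM against 0 and 0 CPM, but its value turned to -0.14 on the log2 scale after thinning. The parietal endoderm-like sum of DUX-pulsed library 2 held 3 cells after thinning, too few to enter that fit. The endocytosis gene Epn3 and Serpinb9e were at least 260-fold and 213-fold higher. Cyp26a1, which breaks down retinoic acid, had 0 and 0 CPM against 245 and 164 CPM, at least 236-fold lower (adjusted p = 3.17e-09). Frzb (a secreted WNT binder), Cemip and Dram1 were at least 103-, 59.5- and 50.4-fold lower.

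Of 13 imprinted genes 9 rose and none fell, and of 12 labyrinth genes 9 rose and 2 fell. Cdkn1c had 555 and 339 CPM in trophoblast-like cells against 0.472 and 0 CPM in parietal endoderm-like cells (log2 fold change 10.13 ± 0.57, adjusted p = 2.25e-09). Phlda2 had 656 and 312 CPM against 4.72 and 6.42 CPM (log2 fold change 6.89 ± 0.48, adjusted p = 1.15e-08). Of 14 simple epithelium genes 11 rose and Cldn6 fell. Marker lists of other cell types rose in part as well, with 5 of 8 mesenchyme genes, 7 of 11 surface ectoderm and amnion genes and 4 of 9 extraembryonic mesoderm genes (1 was lower) higher than in parietal endoderm-like cells, and their part in the contrast was not tested. The parietal class of DUX-pulsed library 2 held only 12 cells, and the count of calls was 1899 without DUX-pulsed library 1.

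Against secretory endoderm-like cells, 4843 of 16171 genes differed (29.9%), 2419 higher (15%) and 2424 lower (15%). Fam90a1b had 71.3 and 124 CPM in trophoblast-like cells against 0 and 0 CPM in secretory endoderm-like cells, at least 148-fold higher (adjusted p = 5.32e-07). Serpinb9e and the cell cycle response gene Rgcc were also at 0 in the endoderm class. Of 8 mesenchyme genes 7 rose, and of 11 surface ectoderm and amnion genes 6. Serum protein genes lay on the other side, with Alb (albumin) at 0 and 0 CPM against 274 and 24.2 CPM and Serpina6, Serpina1a and Igfbp1 likewise at 0. Against mesenchyme-like cells, 5896 of 16171 genes differed (36.5%), 2615 higher (16.2%) and 3281 lower (20.3%). Ldoc1 had 146 and 107 CPM against 0 and 0 CPM, at least 867-fold higher (adjusted p = 6.69e-10), and Tex19.1 (a germ cell and placenta gene), AU018091 and the sulfotransferase gene Chst5 were also at 0 in that class. Igfbp7, Hoxc8, Actg2 and Vcam1 were at 0 in trophoblast-like cells, with Hoxc8 at 49.9 and 135 CPM in mesenchyme-like cells. Of 14 simple epithelium genes 13 rose against mesenchyme-like cells. Without DUX-pulsed library 1, 2431 genes were called against secretory endoderm-like cells and 3606 against mesenchyme-like cells. DESeq2 did not call Serpinb9e against the endoderm classes (adjusted p = 0.248 for parietal and 0.233 for secretory) or AU018091 against mesenchyme-like cells (adjusted p = 0.169).

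Among the trophoblast-like cells, Rhox6 and Rhox9 went together. Spearman's rho between their UMIs was 0.82 over 39 cells of DUX-pulsed library 1 and 0.73 over 18 cells of library 2, as a description, since cells of a library share their source and differ in depth. Both genes had at least 10 UMIs in 18 of 39 and 7 of 18 cells, and neither did in 16 and 10 cells. The other 5 and 1 cells reached that minimum for 1 of the genes, and the minimum was chosen after the values were seen. All 4 genes of this paragraph belong to the rule, and asking for 5 of 9 markers shapes how they go together, since a cell without the Rhox genes must have others. Hand1 and Ascl2 were also related (rho 0.42 and 0.37), whereas Hand1 and Rhox9 ran against each other (rho -0.33 and -0.38). The 11 and 4 cells with 3 or more Ascl2 UMIs all had Hand1, which was detected in 29 of 39 and 13 of 18 trophoblast-like cells overall.

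Cells with at least 10 UMIs of both genes, called Rhox-high, are set against the rest here in plain CPM with no test because the split was made on these cells. Sct had 1510 CPM in the Rhox-high cells of DUX-pulsed library 1 against 96.9 CPM in the rest of the trophoblast-like cells, and 622 against 233 CPM in library 2. Cdkn1c had 1230 against 48.4 CPM in library 1 and 779 against 79.3 CPM in library 2. Both genes were higher in Rhox-high cells of both libraries. Phlda2 was not, with 1460 against 50.1 CPM in library 1 and 2.91 against 646 CPM in library 2, where single cells held most of its UMIs. Hand1 had 221 against 429 CPM and 233 against 385 CPM, lower in Rhox-high cells of both libraries. Wnt6 had 3.8 against 55 CPM and 2.91 against 128 CPM. Median depth was 52451.5 against 51875 UMIs in library 1 and 61051 against 30936 UMIs in library 2.

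**Figure D4:**
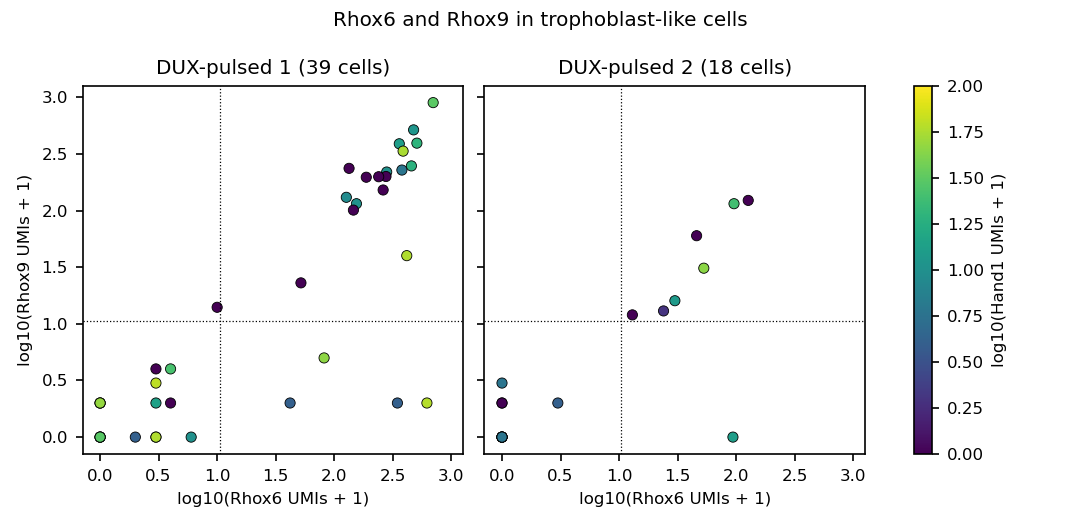
UMIs of Rhox6 (x axis) and Rhox9 (y axis), as log10 of UMIs plus 1, in each trophoblast-like cell of the 2 DUX-pulsed libraries, coloured by Hand1 UMIs. Dotted lines stand at the minimum of 10 UMIs, which both genes reached in 18 of 39 and 7 of 18 cells.

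The trophoblast-like cells were compared with the control cells that met the rule after the low marker levels of those control cells had been seen. Of 16426 genes tested, 1894 differed (11.5%), 1026 higher (6.25%) and 868 lower (5.28%) in the DUX-pulsed cells by edgeR's quasi-likelihood test. The control sums rested on 24 and 6 cells with 1420646 and 299080 UMIs. Without control library 1 the count was 745, without control library 2 it was 1109, and without DUX-pulsed library 1 it was 925. The stricter cell filter (1000 genes, 5% mitochondrial UMIs) left 5 and 1 control cells, of which the 5 of library 1 entered the fit, and 448 calls. Under that filter Fam90a1b, Serpinb9e, AU018091, Lgals3, Sct, Cyp26a1, Ptgds, Eomes and Ttr lost their calls (adjusted p between 0.0619 and 0.237), and Lhx1 had a value of 0. The median mitochondrial share was 3.69% and 4.53% in the DUX-pulsed cells against 6.77% and 6.16% in the control cells, and its part in the result was not tested. The sums shared no block for library, so this comparison carries the spread between libraries. Sums of the other cells of each library entered the fit too, so the spread is not that of the compared cells alone.

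Placental and epithelial genes were higher in the DUX-pulsed cells. Fam90a1b, Serpinb9e, AU018091 and Zfp36l3 were at 0 in the control cells of both libraries and at least 53.5-, 51.4-, 27.1- and 21.1-fold higher in the DUX-pulsed cells, and Zfp36l3 lost its call without control library 1 (adjusted p = 0.0928). Ldoc1 had 155 and 107 CPM in DUX-pulsed cells against 0.669 and 2.93 CPM in control cells (log2 fold change 6.91 ± 0.54, adjusted p = 9.93e-05). Lgals3 had 912 and 430 CPM against 2.67 and 0 CPM (log2 fold change 8.30 ± 0.96, adjusted p = 0.000835). Neither group overlapped the other for these genes, which the naming rule required of the first 4. Among all 16426 genes tested, both DUX-pulsed sums lay above both control sums in 3720 and below them in 3282. Sfmbt2 had 288 and 329 CPM against 20.7 and 11.7 CPM (log2 fold change 4.07 ± 0.33, adjusted p = 0.000103), Cdkn1c had 588 and 342 CPM against 8.02 and 2.93 CPM (adjusted p = 0.000175), and Peg10 had 2050 and 2910 CPM against 138 and 498 CPM (adjusted p = 0.00352). Sct had 741 and 355 CPM against 18.1 and 11.7 CPM (adjusted p = 0.000316). By list, 10 of 14 simple epithelium genes rose and 2 fell (Cldn6 and Cldn7), 5 of 13 imprinted genes rose and 2 fell (Dlk1 and Plagl1), 5 of 12 labyrinth genes rose and Slc16a1 fell, and of 10 trophoblast stem cell genes 1 rose and 2 fell. Krt8 had 4740 and 2630 CPM against 1360 and 1130 CPM (log2 fold change 1.56 ± 0.31, adjusted p = 0.00878), a call lost in 3 alternatives. The Cldn6 call was also lost in 3 alternatives.

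**Figure D5:**
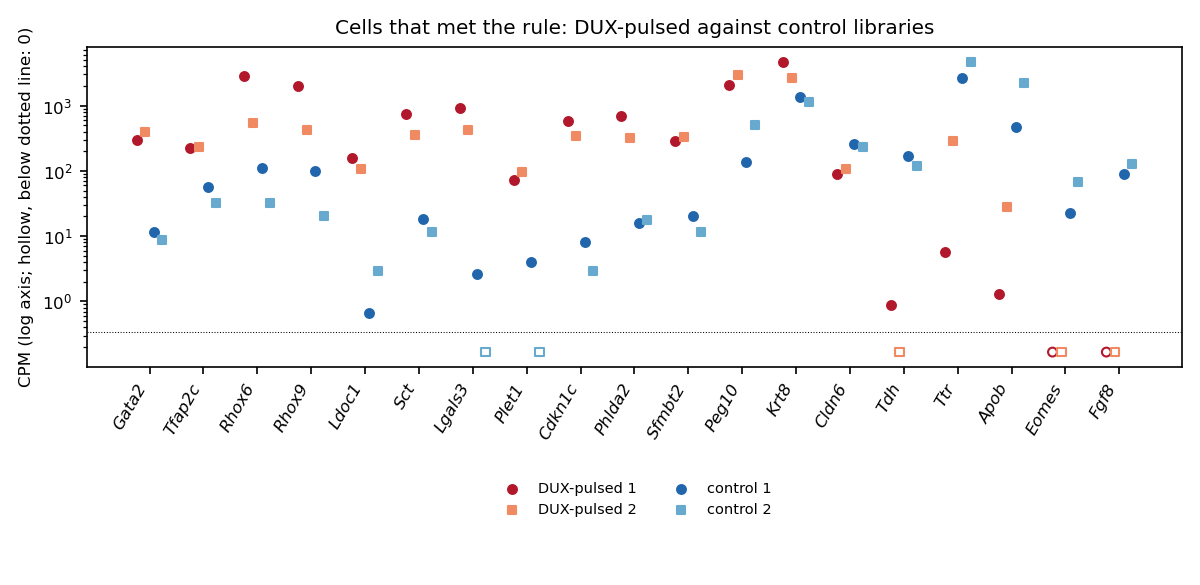
Level of 19 genes (CPM, log axis) in the cells that met the rule, 1 point for each library, DUX-pulsed in red and orange and control in blue, with values of 0 as hollow points below the dotted line. From Gata2 to Krt8 the DUX-pulsed points lie above the control points, and from Cldn6 to Fgf8 the control points lie above. Of all 16426 genes tested, 3720 lay higher and 3282 lower in this way.

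Of 12 endoderm genes 10 were lower in DUX-pulsed cells, while between whole libraries 5 of the 12 were lower and 3 higher. Between the cells that met the rule, 3 of 8 pluripotency genes fell, and of 8 mesenchyme genes 1. Fgf8, a growth factor of the primitive streak, had 0 and 0 CPM in DUX-pulsed cells against 88.3 and 126 CPM in control cells, at least 103-fold lower (adjusted p = 0.000203). Cyp26a1, Lhx1 (a homeobox gene of mesoderm and node) and Ptgds were also at 0 in the DUX-pulsed cells and at least 51.9-, 52.5- and 59-fold lower, with the Ptgds call lost without control library 1 (adjusted p = 0.257). Tdh, a threonine dehydrogenase of pluripotent cells, had 0.868 and 0 CPM against 167 and 120 CPM (log2 fold change -7.88 ± 0.75, adjusted p = 0.000256). Eomes had 0 and 0 CPM against 22.7 and 67.3 CPM (adjusted p = 0.00308), and Cdx2 had 2.6 and 2.26 CPM against 52.2 and 8.78 CPM (adjusted p = 0.00315), while Elf5 had 10.8 and 9.05 CPM against 0 and 2.93 CPM (adjusted p = 0.0337). The Elf5 value rests on 1 UMI in control cells. Its log2 fold change was 3.99 without DUX-pulsed library 1 and 1.78 without control library 1, and its call was lost in both cases. Cdx2 stood at -1.81 on the log2 scale without control library 1, and its call was lost there as well. Among the endoderm genes that fell were Apob at 1.3 and 28.3 CPM against 472 and 2250 CPM (log2 fold change -6.91 ± 1.04, adjusted p = 0.00225) and Ttr at 5.64 and 289 CPM against 2680 and 4700 CPM (adjusted p = 0.0202, and 0.0671 without control library 2). Pou5f1 had 0 and 0 CPM against 44.1 and 0 CPM, so that its call (adjusted p = 0.0265) came from control library 1 alone and its value is 0 without it.

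Summed over whole libraries, the markers differed in how far DUX-pulsed libraries lay above control libraries. Their values are a description with no test, since they chose the cells and were picked with earlier results of these data known. In such sums, fewer cells of a type and less RNA per cell cannot be told apart. Of 16477 genes, 4388 differed (26.6%), 2562 higher (15.5%) and 1826 lower (11.1%) in DUX-pulsed libraries. The count was 2738 without control library 1 and 2380 without control library 2. Gata2 had 13.2 and 11.5 CPM in DUX-pulsed libraries against 1.65 and 1.58 CPM in control libraries. Tfap2c had 9.53 and 6.88 CPM against 2.33 and 0.912 CPM, and Ascl2 had 3.88 and 3.25 CPM against 1.89 and 1.3 CPM. Hand1 had 95.4 and 128 CPM against 23 and 17.2 CPM and Krt7 had 53.4 and 39.4 CPM against 26.1 and 26 CPM. Plac1 stood the other way, with 14.5 and 9.47 CPM against 31.9 and 35.9 CPM. The groups overlapped for Rhox6, with 121 and 14.5 CPM against 15.9 and 6.1 CPM, while Rhox9 had 75.9 and 10.4 CPM against 7.05 and 1.41 CPM and Gata3 7.82 and 10.1 CPM against 7.48 and 7.74 CPM.

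With the cells that met the rule taken out, 4321 of 16417 genes differed (26.3%), 2495 higher (15.2%) and 1826 lower (11.1%). The count was 2549 without control library 1 and 2031 without control library 2. The markers carry no test here, since the rule removed cells by them and lower levels follow from that removal. Gata2 then had 2.26 and 1.9 CPM in DUX-pulsed libraries against 1.48 and 1.54 CPM in control libraries, Tfap2c 1.26 and 1.19 against 1.45 and 0.776 CPM, Ascl2 0.813 and 1.22 against 1.8 and 1.24 CPM, and Rhox9 2.01 and 0.312 against 5.54 and 1.32 CPM. Hand1 had 86.7 and 125 CPM against 22.5 and 16.8 CPM and Krt7 41.7 and 36.7 against 25.8 and 25.5 CPM, both still higher in each DUX-pulsed library than in each control library. Of the genes outside the rule that were followed here, Sct, Elf5, Phlda2 and Fthl17a were lower in the remaining DUX-pulsed cells. These genes had been higher in trophoblast-like cells, so taking those cells out lowers them mainly in DUX-pulsed libraries. In DUX-pulsed library 1 the cells taken out held 1708 Sct UMIs and the rest 268, against 27 and 1042 in control library 1. Their p-values thus describe the removal as well as the remaining cells. Sct had 4.45 and 2.41 CPM against 11 and 7.99 CPM (log2 fold change -1.46 ± 0.34, adjusted p = 0.029). With the cells included it had 31.5 and 11 CPM in DUX-pulsed libraries against 11.2 and 8.06 CPM in control libraries. Elf5 had 0.0166 and 0.0283 CPM against 0.265 and 0.194 CPM (adjusted p = 0.0179), Phlda2 had 8.86 and 6.01 CPM against 15.7 and 16.1 CPM (adjusted p = 0.0207), and Fthl17a had 0.166 and 0.17 CPM against 0.869 and 0.558 CPM (adjusted p = 0.0199, and 0.109 without control library 1). The Sct call was lost without control library 1 (adjusted p = 0.088) and under the stricter cell filter (0.0849), the Phlda2 call without either control library (0.0544 and 0.0656), and the Elf5 call with DESeq2 (adjusted p = 0.111). Cdkn1c stayed higher, with 11.6 and 10.8 CPM against 3.62 and 1.76 CPM (log2 fold change 2.06 ± 0.36, adjusted p = 0.0122), a call lost under the stricter cell filter (adjusted p = 0.0582).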

How the data were processed

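Single cells of 2 DUX-pulsed and 2 control day 9 embryoid body libraries were measured with 10x Genomics droplet RNA sequencing. The authors deposited 1 table of raw UMI counts of 20284 genes in 10090 cells. Cell Ranger 2.2.0, STAR and mm10 are named in the submitters' processing notes, and filters applied before deposit are not given in the sources used here. Column names gave each cell's library, and 0 columns were left unmapped. Cells under 500 genes or over 10% mitochondrial UMIs were dropped, so that 65062824 and 36462169 UMIs in DUX-pulsed libraries 1 and 2 and 96344329 and 78167098 in control libraries 1 and 2 remained. Of the barcodes, 7 occurred in more than 1 library, 0 of them among the cells that met the rule. Doublets were not removed.

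UMI counts were summed per library and kind of cell and tested with edgeR 4.0.16 (TMM scaling, glmQLFit and glmQLFTest) in R 4.3.3, for genes that reached 10 counts in 2 or more sums, with Benjamini-Hochberg adjustment over all genes tested and a threshold of 0.05. Sums of trophoblast-like and other cells of a DUX-pulsed library shared a block for that library. Sums of control cells entered these fits too, to estimate the spread, and had a block only in the comparisons with the 3 classes. Sums of at least 10 cells entered, or of at least 5 in the comparison of DUX-pulsed with control cells that met the rule, which was added after the data were seen and had no block. DESeq2 1.42.0 served as an alternative, and the other alternatives changed the filters, the number of markers, the doublet scores, the depth and the libraries. A bound against a group at 0 used a floor of 3 counts over that group. The fits were tested on simulated data. Cells were read in Python 3.11.15 with scanpy 1.11.5.

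The genes named were the 16 largest rises and 8 largest falls among called genes that averaged 20 CPM or more in their higher group and did not overlap (4 and 4 for each class and for the added comparison), leaving out the 15 rule genes, mitochondrial and ribosomal protein genes and unnamed gene models, together with members of the gene lists. A gene that this rule names is not reported here. The X-linked and Rhox splits, the Prl cell and the UMI minimums were chosen after the values were seen. The rule, the members and the lists were chosen with earlier results of these data known. Cells are not replicates, and the p-values rest on 2 libraries a group. With a block for library, they measure how the difference between kinds of cell varied between libraries. The comparison with all other cells also takes in the spread between the sums of other cells of the control libraries. Without a block, the p-values measure the spread between libraries. In the comparison of DUX-pulsed with control cells that met the rule, that spread is also taken from the sums of other cells.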

Additional observations from a re-analysis of the deposited data

How the results depend on the processing

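The share of cells that met the rule was 2.93% in DUX-pulsed and 2.36% in control libraries with 4 or more markers, and the control share was 0.0544% with 6 or more markers and 0.0448% after thinning to 10000 UMIs. Against other cells, 2445 genes were called with 4 markers and 2629 after thinning, and 2708 to 4603 with 1 library left out. Eomes then had 0.06 on the log2 scale with 4 markers and Mmp9 -6.05 after thinning. After thinning, 1599 genes were called against parietal endoderm-like, 1421 against secretory endoderm-like and 3509 against mesenchyme-like cells, with ranges of 1899 to 4377, 2431 to 4486 and 3606 to 5616 when 1 library was left out, and Tac2 had -0.14 against parietal endoderm-like cells. Under the stricter cell filter (1000 genes, 5% mitochondrial UMIs), 2981 genes were called against parietal endoderm-like cells, 448 between DUX-pulsed and control cells that met the rule (Lhx1 at 0.00), 2094 in whole libraries (Phlda2 at -0.26) and 2118 in libraries without these cells. Leaving out 1 library gave 745 to 1693, 2380 to 5056 and 2031 to 5035 calls in the last 3 comparisons, with Pou5f1 between -13.45 and 0.00 (without control library 1) and Phlda2 in whole libraries between -0.23 (without DUX-pulsed library 1) and 1.10 (without DUX-pulsed library 2). The cause of these changes was not tested. With the replicate number as a block, 7157 genes were called in whole libraries and 6833 without these cells. Same-numbered libraries deviated together (correlation 0.468 and 0.463), but there are 2 pairs and the labels do not say that numbers are shared, so this is a hint from the data and not part of the design. The comparison of DUX-pulsed with control cells that met the rule could not be fitted with 6 or more markers or after thinning, since too few control cells were left. Of the values of single named genes against other cells, 889 of 949 kept their direction and their side of the threshold, and 268 of 298 between DUX-pulsed and control cells. A gene at 1 to 3 UMIs per cell, and any level in the 6 cells of control library 2, is limited by depth.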

Other observations

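Genes on the X chromosome were frequent among the strongest rises in trophoblast-like cells, a pattern chosen after the values were seen and given with no test. Of 115 genes that rose by 3 or more on the log2 scale at 20 CPM or more against other cells of the DUX-pulsed libraries, 19 lay on X (16.5%), against 3.52% of the genes tested. Over all 579 X-linked genes tested, 90 rose (15.5%) and 126 fell (21.8%), with a median log2 fold change of -0.21. Nrk, a kinase gene of the spongiotrophoblast, had 1160 and 1310 CPM in trophoblast-like cells against 110 and 109 CPM in other cells (log2 fold change 3.50). Esx1, a homeobox gene of the labyrinth, had 50.4 and 24.8 CPM against 2.48 and 0.424 CPM (log2 fold change 4.87). Arhgef6, a guanine nucleotide exchange factor gene, had 126 and 348 CPM against 5.63 and 4.81 CPM (log2 fold change 5.30), and Mbnl3, a splicing regulator gene, had 239 and 224 CPM against 17.8 and 25.6 CPM (log2 fold change 3.45). In these 4 genes both trophoblast-like sums lay above both sums of other cells, as they did in 3818 of all 16426 genes tested. Ldoc1, Zfp36l3 and the Rhox genes also lie on X.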
